A study of Homo sapiens with 12 samples.

Results

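The 2 control groups of a study of MITF, the master regulator of the pigment cell lineage, were compared with each other: scrambled siRNA against empty vector. The comparison took in all genes that passed a filter on low counts, 14297 of the 26364 in the table, and 6 of the 12 libraries. All cells were A2058, an established human melanoma cell line, and RNA was measured by bulk sequencing of stranded total RNA. The empty vector cells (3 libraries) had been transduced with lentivirus carrying a pLVX vector without insert and then selected with puromycin. The scrambled siRNA cells (3 libraries) had been lipofected with a control siRNA for 48 hours, and the labels name no vector for them. Virus, selection drug, transfection lipid and siRNA therefore changed together between the groups, and their contributions cannot be told apart. Neither the vector's promoter nor the sequence of the siRNA is given in the sources used here, and no untreated cells were analysed here. The other 6 libraries were cells transduced with the same vector carrying MITF and selected (3 libraries, called MITF vector here) and cells lipofected with MITF siRNA (3 libraries). MITF siRNA against MITF vector is a further siRNA against vector comparison that shares no library with the first. It differs from it in that MITF was itself perturbed, in opposite directions on its 2 sides.

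Total counts of the 6 control libraries ran from 7427637 to 14500191. Over genes, Pearson's r was 0.991 to 0.994 between libraries of one control group and 0.979 to 0.982 between libraries of different ones. The first principal component held 60.2% of the variance of the 6 libraries and separated the groups, and the second (14.0%) set empty vector replicate 2, the shallowest library, apart from replicates 1 and 3. Small nucleolar and other small RNA genes took 1.51% of that library's counts, 0.844% and 0.879% in the other empty vector libraries and 1.70% to 1.76% in the scrambled siRNA libraries. The locus MIR6087 was singled out after its values were seen. It took 1.17% and 1.26% of the counts of empty vector replicates 2 and 3, 0.0416% in replicate 1 and 0.0679% to 0.0803% with scrambled siRNA. Its log2 fold change was -3.48 (SE 0.97, edgeR adjusted p = 0.0216), and the source of its reads was not tested. Markers of the labelled cell type were present. Of the 8 listed melanoma and melanocyte markers, 0 had a mean under 1 CPM over the 6 control libraries. Their summed level was 2483 to 2646 CPM with the empty vector and 3431 to 3795 CPM with scrambled siRNA, PMEL being the most abundant. CPM is the depth-scaled count after TMM scaling, which adjusts each library for its composition.

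The 2 controls differed at a large share of genes, mostly by small amounts. 5502 genes were called at an adjusted p under 0.05 (38.5% of those tested), of which 2706 were higher (18.9%) and 2796 lower (19.6%) with scrambled siRNA. Adjusted p-values are Benjamini-Hochberg values from edgeR's quasi-likelihood test throughout. The median absolute log2 fold change of the called genes was 0.34, and 589 genes (4.12%) were called with a change of at least 2-fold, 300 of them higher (2.1%) and 289 lower (2.02%). The median over all tested genes was -0.00023. For 6861 genes (48.0%) the 3 libraries of one group lay wholly above (23.7%) or below (24.3%) those of the other.

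**Figure D1:**
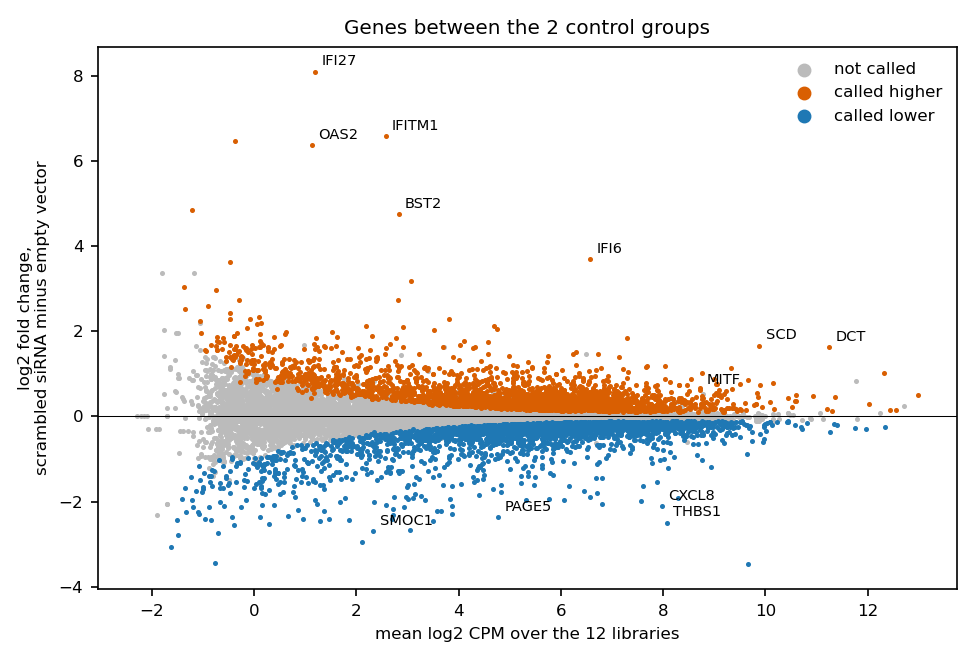
Log2 fold change (scrambled siRNA minus empty vector) against mean log2 CPM over the 12 libraries, 1 point a tested gene, with the 2706 genes called higher in orange, the 2796 called lower in blue and the others in grey. The points farthest above 0 include IFI27, IFITM1, OAS2, BST2 and IFI6, and highly expressed DCT and SCD also lie above 0.

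MITF itself was not level between the controls. It stood at 299, 311 and 301 CPM in the empty vector libraries and at 504, 465 and 431 CPM in the scrambled siRNA libraries, with no overlap. The rise was 1.54-fold (log2 fold change 0.62, SE 0.051, adjusted p = 3.17e-11). In the MITF-perturbed pair the siRNA side was the lower one (log2 fold change -0.94), so the same gene ran in opposite directions in the 2 siRNA against vector comparisons. In that pair 8975 genes were called (62.8%), 32.0% of all tested genes being higher and 30.7% lower with MITF siRNA. Across both pairs 874 genes were called higher in each siRNA group than in its vector group (6.11%), 586 lower in each (4.1%), 1113 higher between the controls but lower in the other pair (7.78%), and 1398 the reverse (9.78%).

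Cells sense viral infection through receptors for double-stranded RNA and answer with interferons. Secreted interferon acts through its receptors, the JAK kinases and a transcription factor complex that holds IRF9 on a large set of interferon-stimulated genes, whose products block viral entry, translation and replication. Many of their promoters carry an interferon-stimulated response element, whose core is a pair of GAAA blocks spaced by 2 bases, and the same set of genes is a known readout when duplex RNA or foreign nucleic acid enters a cell.

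The interferon-stimulated genes held most of the largest single rises. Of 46 tested members 36 rose with scrambled siRNA (78.3%, against 18.9% of all genes), 1 fell and 9 were not called, and the median log2 fold change was 0.78. 18 of the 36 rose at least 2-fold. Among the 15 largest rises of single genes, 10 were of this list or were OAS genes. GBP1, a guanylate-binding protein, was the member that fell (log2 fold change -0.59, adjusted p = 0.000377), and MX2, IFI44, GBP2, GBP3, SP100, TRIM21, TRIM22, CXCL10 and EPSTI1 were not called.

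The promoters of 4 of the largest rises are shown because they hold the motif near the start site. They are the 250 bases before the RefSeq start of each gene (GRCh38.p14, read along the gene's strand), with each match to GAAA, any 2 bases, GAAA on either strand in capitals. IFI27 lies at chr14:94110486-94110735 on the plus strand, IFITM1 at chr11:313790-314039 on the plus strand, BST2 at chr19:17405631-17405880 on the minus strand and IFI6 at chr1:27672193-27672442 on the minus strand.
IFI27: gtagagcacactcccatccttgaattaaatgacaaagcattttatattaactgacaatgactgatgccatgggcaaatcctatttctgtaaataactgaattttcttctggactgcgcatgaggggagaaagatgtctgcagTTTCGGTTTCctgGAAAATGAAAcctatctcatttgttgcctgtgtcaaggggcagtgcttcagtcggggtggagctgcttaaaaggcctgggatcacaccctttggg
IFITM1: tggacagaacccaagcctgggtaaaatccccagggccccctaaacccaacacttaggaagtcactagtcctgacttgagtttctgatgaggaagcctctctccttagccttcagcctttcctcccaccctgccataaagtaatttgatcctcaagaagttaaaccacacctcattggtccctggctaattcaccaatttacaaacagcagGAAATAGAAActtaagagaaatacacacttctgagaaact
BST2: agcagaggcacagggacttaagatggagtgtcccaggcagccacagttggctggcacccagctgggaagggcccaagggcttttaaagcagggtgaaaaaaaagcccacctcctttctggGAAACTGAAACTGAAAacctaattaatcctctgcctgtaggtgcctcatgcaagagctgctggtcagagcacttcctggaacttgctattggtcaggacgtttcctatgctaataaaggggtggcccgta
IFI6: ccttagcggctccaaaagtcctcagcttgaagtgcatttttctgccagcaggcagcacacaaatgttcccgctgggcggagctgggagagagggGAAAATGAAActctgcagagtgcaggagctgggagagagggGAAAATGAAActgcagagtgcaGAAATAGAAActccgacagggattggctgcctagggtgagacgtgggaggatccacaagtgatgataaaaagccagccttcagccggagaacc
The 2 matches of BST2 overlap, IFI6 holds 3 matches, and 1 of the 2 matches of IFI27 is on the opposite strand. Over windows from 250 bases before to 50 after the start, 24 of the 37 list members with a RefSeq promoter held the motif, 18 of the 30 that rose, and 996 of all 27305 promoters (3.65%). These are matches of letters, not measured sites.

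IFI27, a small protein of inner membranes and one of the most strongly interferon-inducible genes, was close to absent with the empty vector, at 0.0688, 0 and 0.202 CPM. With scrambled siRNA it stood at 9.72, 19.4 and 55.4 CPM. The empty vector libraries held 3 counts in all against 1156, a ratio of 298 (exact 95% counting interval 102 to 1450, counting error only), with an adjusted p of 0.00297. IFITM1, a membrane protein that hinders fusion of viruses with cells, stood at 0.413, 0.55 and 0.202 CPM against 13.5, 30.3 and 67.3 CPM. Its rise was 96-fold (log2 fold change 6.58, SE 1.1, adjusted p = 0.00152). All 3 scrambled siRNA libraries lay far above every empty vector library for both genes, and within the scrambled group replicate 1 was lowest and replicate 3 highest.

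BST2, or tetherin, which holds budding virions at the cell surface, stood at 1.03, 1.1 and 0.809 CPM against 12.5, 22.5 and 44.9 CPM, a 27.0-fold rise (adjusted p = 0.00117). IFI6, a mitochondrial protein with antiviral action, was the most abundant of these genes, at 24.3, 23.0 and 23.1 CPM against 176, 260 and 479 CPM. It rose 13.0-fold (log2 fold change 3.70, SE 0.405, adjusted p = 0.000112). MX1, a GTPase that traps viral ribonucleoproteins, stood at 2.96, 2.61 and 2.43 CPM against 10.1, 22.8 and 41.1 CPM and rose 9.11-fold (adjusted p = 0.00334). The order of the scrambled libraries was the same in all 3 genes, with a range of several-fold inside the group beside narrow empty vector values.

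ISG15, a ubiquitin-like modifier, stood at 11.5, 7.84 and 11.9 CPM against 23.8, 42.6 and 74.3 CPM and rose 4.37-fold (adjusted p = 0.00640), though it was not called with only the 2 control groups in the fit. XAF1, a pro-apoptotic interferon target, had 2 counts over the empty vector libraries and 259 over the scrambled siRNA libraries, a ratio of 100.3 (counting interval 27.5 to 833). IRF9, a DNA-binding transcription factor of the response, rose 2.79-fold from 13.8, 12.9 and 13.0 CPM to 25.3, 38.7 and 47.6 CPM (adjusted p = 0.000825). IFI35, HERC5, IFITM2 and LGALS3BP, the members with the smallest adjusted p, rose 2.10-fold, 1.46-fold, 1.62-fold and 1.81-fold.

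Across the 36 members that rose, scrambled siRNA replicate 3 was the highest of its group in 36 and replicate 1 the lowest in 32. Leaving out replicate 3 left 32 members higher with a list median of 0.62. The fitted changes without that library were 7.17 for IFI27, 5.42 for OAS2, 5.84 for IFITM1, 4.17 for BST2, 2.12 for OAS1, 1.44 for OAS3 and 1.24 for IFI44L, whose call was lost without that library, without scrambled siRNA replicate 2 and without any 1 empty vector library. With only the 2 control groups in the fit, whose spread is then not shared with the other 6 libraries, 23 members were called higher at the same median of 0.78.

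**Figure D2:**
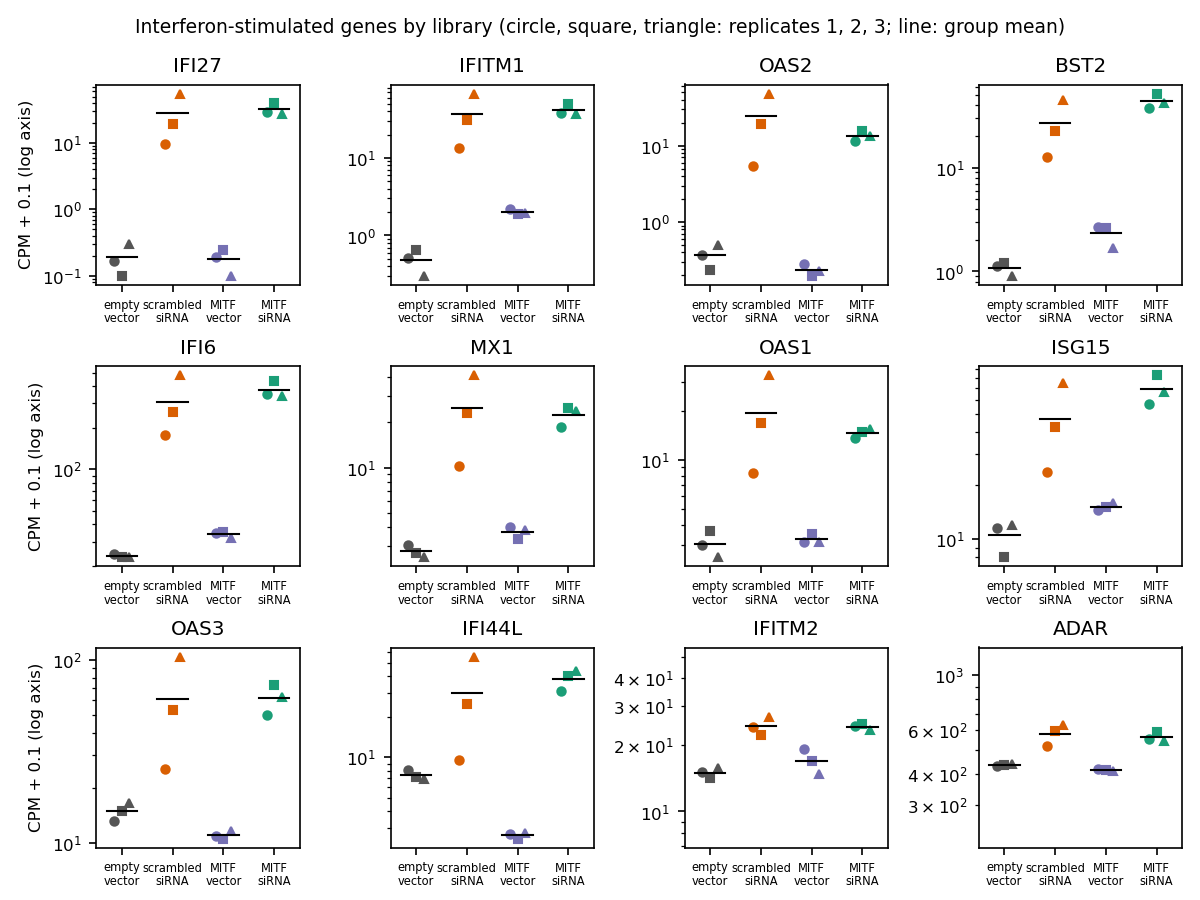
CPM plus 0.1 on a log axis for 12 interferon-stimulated genes in the 12 libraries, by group, with circles, squares and triangles for replicates 1, 2 and 3 and a line at the group mean. Both siRNA groups lie above both vector groups for each gene, and within the scrambled siRNA group the triangle (replicate 3) is the highest point.

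Genes for double-stranded RNA sensing rose in part. The OAS genes among them were also counted with the interferon-stimulated genes in the largest single rises. Whether this list moved separately from the interferon list was not tested. Of 18 tested genes for double-stranded RNA sensing 9 rose (50.0%, against 18.9% of all genes) and 2 fell (median 0.29), and with only the 2 control groups in the fit 4 were called higher. The OAS enzymes, which make the second messenger that activates RNase L, rose the most: OAS2 stood at 0.275, 0.138 and 0.404 CPM against 5.28, 19.2 and 47.8 CPM (82.9-fold, adjusted p = 0.00525). OAS1 rose 6.63-fold and OAS3 4.17-fold, and these 3 OAS genes were not called with only the 2 control groups in the fit. ADAR, which edits duplex RNA, rose from 430, 436 and 438 CPM to 519, 596 and 633 CPM (1.34-fold, adjusted p = 1.01e-07). The cytosolic sensors DDX58 (RIG-I) and IFIH1 (MDA5) rose by log2 fold changes of 0.74 and 0.44. TLR3, the endosomal sensor, had a log2 fold change of 0.08 (adjusted p = 0.646), and the kinase IKBKE fell 1.26-fold.

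No matching rise was seen in the transcripts of the ligands or receptors. Of 22 interferon genes listed, 17 had no count in any of the 6 control libraries, and the highest count of any of them was 4 with scrambled siRNA and 3 with the empty vector, too few to compare. Of 14 receptor and signalling genes, a list added after the data were seen, JAK2 rose (1.67-fold, adjusted p = 6.57e-10) and 6 fell, among them IFNGR1 (1.18-fold), IL10RB (1.22-fold) and the feedback inhibitor SOCS3 (1.36-fold). IFNAR1 and IFNAR2, the receptor chains for type I interferon, were not called (log2 fold changes -0.10 and -0.0010).

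In the MITF-perturbed pair 34 of the 46 interferon-stimulated genes were higher with MITF siRNA than with MITF vector and 4 lower (median 0.95). Over all tested genes 32.0% were higher and 30.7% lower there. Of the 46 genes 27 were higher in both pairs, against 6.11% of all genes. The fitted log2 fold changes there were 8.41 for IFI27, 6.5 for OAS2, 4.42 for IFITM1 (6.58 between the controls), 4.23 for BST2, 3.46 for IFI6 and 3.91 for IFI44L (2.02 between the controls). Of the 15 largest rises between the controls 13 were also called higher there, against 874 of all 2706 genes that rose. MITF ran in opposite directions in the 2 pairs, and virus, drug, lipid and siRNA changed together in both. The part of each in these rises was not tested.

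Antigen presentation genes rose beside the interferon list. HLA class I molecules show peptides cut by the proteasome and pumped by the TAP transporter, and class II molecules show peptides from the endocytic route under control of CIITA. Of 18 class I and peptide-processing genes 13 rose (72.2%, against 18.9% of all genes) and 1 fell (median 0.39). HLA-B stood at 108, 115 and 112 CPM against 259, 362 and 577 CPM (3.58-fold, adjusted p = 0.000701), and B2M, the light chain shared by class I molecules, rose 1.68-fold. NLRC5, the class I transactivator, rose 1.62-fold (adjusted p = 5.15e-06), TAP2 1.35-fold and TAPBP 1.27-fold. In the promoter windows 9 of 15 class I members held the interferon response element core, against 3.65% of all promoters. Of 11 class II members with a promoter, all called higher, 0 held it.

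All 13 HLA class II genes rose (100%, against 18.9% of all genes), with a median of 0.90. With the DESeq2 test 12 of the 13 were called higher. The count was also 12 without empty vector replicate 1 and without scrambled siRNA replicate 1 or 3. HLA-DPA1 stood at 42.1, 46.0 and 41.9 CPM against 85.8, 101 and 97.2 CPM (2.20-fold, adjusted p = 1.43e-13), and HLA-DMA, which helps load peptides, rose 2.12-fold. CD74, the invariant chain, rose 1.86-fold, and CIITA 1.41-fold. The class II values varied less among the scrambled libraries than those of the interferon list. HLA-DRB1 and HLA-DQB1 rose 1.98-fold and 1.84-fold, but HLA genes have near-identical copies and how reads fitting several genes were counted is not given, so single HLA genes are uncertain. The class II rise in the MITF-perturbed pair (median 5.98) went with near-absent transcripts in the MITF vector libraries, where CD74 stood at 0.41, 1.18 and 0.66 CPM against 74.1, 80.9 and 74.4 CPM with the empty vector, though HLA-DPB1 was close to the empty vector level there and HLA-DOB above it.

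The machinery that uses siRNA showed moderate changes. DICER1 cuts duplex RNA into short guides, Argonaute proteins hold the guide, and TNRC6 proteins recruit the silencing factors. Of 19 tested members 8 rose and 3 fell (42.1% and 15.8%, against 18.9% and 19.6% of all genes, median 0.11). DICER1 stood at 184, 196 and 187 CPM against 253, 272 and 285 CPM, a 1.43-fold rise (adjusted p = 7.20e-11). TNRC6B rose 1.44-fold, AGO4 1.39-fold and AGO2 1.3-fold. In the MITF-perturbed pair AGO2 was higher with siRNA, TNRC6B and AGO4 lower, and DICER1 was not called (log2 fold change -0.05).

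Genes of lipid synthesis rose together. Cells hold the SREBP transcription factors in the endoplasmic reticulum while sterols are plentiful and release them when sterols run low. SREBP-2 then acts mainly on the mevalonate pathway and sterol uptake, and SREBP-1 more on fatty acid synthesis and desaturation. Of 25 tested genes of cholesterol synthesis and uptake 21 rose (84%, against 18.9% of all genes), the other 4 were not called, and the median was 0.47.

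HMGCS1, the first committed step towards mevalonate, stood at 83.0, 83.8 and 81.2 CPM against 150, 147 and 141 CPM (1.77-fold, SE of log2 0.048, adjusted p = 8.27e-16). MSMO1, which removes methyl groups from sterol intermediates, rose 1.84-fold from 34.7, 36.6 and 38.7 CPM to 67.9, 67.8 and 66.3 CPM. The libraries were tight within both groups, unlike those of the interferon list. INSIG1, the sterol-regulated anchor of SREBP, rose 1.65-fold.

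SREBF2, the gene of SREBP-2, rose from 90.6, 98.9 and 98.1 CPM to 153, 153 and 140 CPM (1.56-fold, adjusted p = 2.99e-12). Its promoter is shown because it holds a match to a 10-base sterol response element (in capitals), which 13 of 27305 promoters hold (0.0476%). It lies at chr22:41832855-41833104 on the plus strand (250 bases before the RefSeq start, GRCh38.p14).
SREBF2: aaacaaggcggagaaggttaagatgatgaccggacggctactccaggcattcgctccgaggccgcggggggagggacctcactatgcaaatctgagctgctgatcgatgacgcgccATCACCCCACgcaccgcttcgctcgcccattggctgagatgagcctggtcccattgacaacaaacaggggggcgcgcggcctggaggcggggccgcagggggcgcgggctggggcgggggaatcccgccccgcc
Of the 18 cholesterol genes with a promoter in the reference, SREBF2 was the only match to these exact letters on either strand, and variants of the element were not searched.

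Of 21 genes of fatty acid synthesis and desaturation 11 rose (52.4%, against 18.9% of all genes) and 1 fell (median 0.31). SCD, the enzyme that puts the first double bond into saturated fatty acids, rose 3.17-fold from 407, 429 and 421 CPM to 1510, 1343 and 1131 CPM (adjusted p = 1.55e-10). FASN, the fatty acid synthase, stood at 369, 366 and 365 CPM against 647, 617 and 595 CPM (1.69-fold, adjusted p = 5.92e-15). ACACA, which makes malonyl-CoA, rose 1.40-fold, and FADS1, a desaturase of polyunsaturated chains, 1.38-fold. For SCD, FASN and ACACA scrambled replicate 1 was the highest of its group and replicate 3 the lowest, the reverse of the order in the interferon list. Among 19 genes of efflux and storage 6 rose and 3 fell (31.6% and 15.8%), with CD36, a fatty acid receptor, up 2.55-fold and G0S2, an inhibitor of triglyceride breakdown, down 3.88-fold.

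Cholesterol and fatty acid genes parted in the MITF-perturbed pair. There 19 of 25 cholesterol genes were higher and 3 lower (median 0.40), against 32.0% and 30.7% of all genes. In both pairs 16 rose (6.11% of all genes did), HMGCS1 by 0.70 on the log2 scale in the second. The fatty acid list of 21 had 8 higher and 10 lower (median -0.12), beside the same shares of all genes, and SCD fell by 0.63. MITF vector libraries held SCD, FASN, FADS1 and ACACA above the empty vector level, as the heat map of single libraries shows.

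Genes of glycolysis and the hypoxia response also rose, 22 of 38 (57.9%, against 18.9% of all genes) with 3 lower (median 0.30). PFKFB4, which makes the activator of phosphofructokinase, stood at 69.3, 59.3 and 71.3 CPM against 113, 136 and 137 CPM (1.92-fold, adjusted p = 5.20e-08). GPI, the isomerase of the second step, rose 1.37-fold, HK2, a hexokinase, 1.68-fold and LDHA, lactate dehydrogenase, 1.3-fold from 1426, 1529 and 1373 CPM to 1728, 1927 and 1954 CPM. The transcription factors of the hypoxia response fell: HIF1A from 874, 886 and 892 CPM to 672, 645 and 652 CPM (1.35-fold, adjusted p = 1.22e-09) and EPAS1 1.87-fold. SLC2A1, the main glucose transporter, had a log2 fold change of 0.07 (adjusted p = 0.732). In the MITF-perturbed pair 29 members were higher and 4 lower, against 32.0% and 30.7% of all genes. In both pairs 21 rose, against 6.11% of all genes. Beside these, 4 of 55 nuclear oxidative phosphorylation genes rose and 8 fell (7.27% and 14.5%, both below the shares of all genes, with 3 lower when empty vector replicate 1 was left out and 5 when scrambled siRNA replicate 3 was). Of 29 genes of the TCA cycle and its regulators 7 rose and 4 fell (24.1% and 13.8%, near the shares of all genes).

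**Figure D3:**
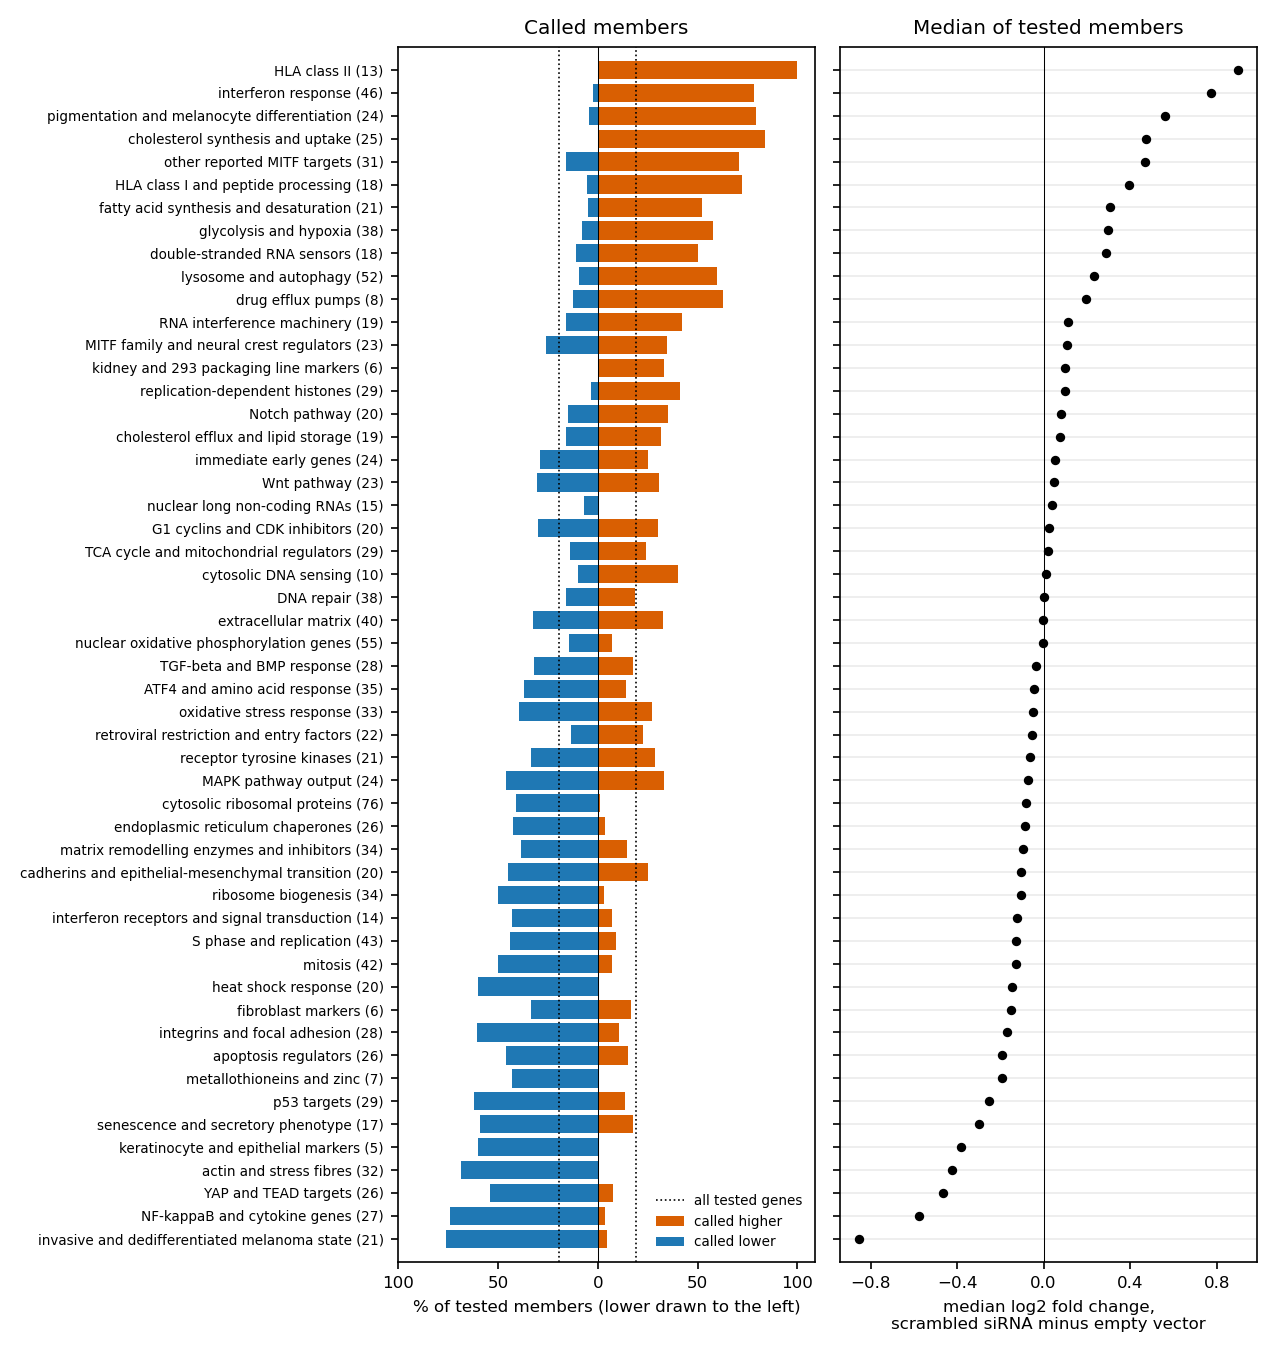
Left, share of each list's tested members called higher (orange, to the right) and lower (blue, to the left) with scrambled siRNA, beside the shares over all tested genes (dotted, 18.9% and 19.6%). Right, median log2 fold change of the tested members, from 0.90 for HLA class II and 0.78 for the interferon response down to -0.85 for the invasive melanoma state, with the number tested in brackets.

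Pigment cell genes were higher with scrambled siRNA. Of 24 tested genes of pigmentation and melanocyte differentiation 19 rose (79.2%, against 18.9% of all genes) and 1 fell (median 0.56), and so did 22 of 31 further genes reported as MITF targets, with 5 lower (median 0.47). DCT, an enzyme of eumelanin synthesis, rose 3.10-fold from 1304, 1298 and 1195 CPM to 4205, 3940 and 3622 CPM (adjusted p = 1.03e-09). MLANA, the Melan-A antigen, stood at 58.5, 65.2 and 63.2 CPM against 118, 103 and 109 CPM (1.77-fold), and PMEL, the fibril protein of melanosomes, rose 1.71-fold. TYR, the rate-limiting enzyme of melanin synthesis, rose 1.46-fold from 753, 683 and 726 CPM to 1094, 1030 and 1044 CPM (adjusted p = 4.76e-12). GPNMB and EDNRB rose 1.51-fold and 1.44-fold. Among the other targets LYST, a regulator of lysosome size, rose 1.84-fold, ACP5 2.16-fold and MYO1D 1.90-fold, while BCL2A1 and MET fell 1.59-fold and 1.48-fold. MITF was 1.54-fold higher in the same libraries, and its part in these changes was not tested.

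Lysosome and autophagy genes moved the same way, with 31 of 52 higher (59.6%, against 18.9% of all genes) and 5 lower (median 0.23). PSAP, the precursor of sphingolipid activator proteins, stood at 1719, 1516 and 1656 CPM against 2276, 2238 and 2324 CPM (1.40-fold, adjusted p = 2.13e-10). GAA, the acid glucosidase, rose 1.6-fold, and SMPD1, the acid sphingomyelinase, 1.55-fold. In the MITF-perturbed pair, where MITF was lower on the siRNA side, 18 of the 24 pigmentation genes were lower and 4 higher (median -1.07), 25 of the 31 other targets were lower, and 25 of the 52 lysosome genes were lower and 14 higher. Over all tested genes 30.7% were lower and 32.0% higher in that pair.

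The melanoma genes tied to an invasive, dedifferentiated state ran the other way. 16 of 21 fell and 1 rose (76.2% lower, against 19.6% of all genes, median -0.85). THBS1, the adhesive glycoprotein thrombospondin 1, fell 5.64-fold from 1156, 1136 and 1174 CPM to 161, 216 and 238 CPM (log2 fold change -2.50, SE 0.168, adjusted p = 4.06e-06). AXL, a receptor tyrosine kinase that marks this state, fell 3.25-fold from 101, 98.8 and 109 CPM to 25.2, 32.1 and 37.8 CPM. NGFR, a neural crest receptor, fell 2.93-fold, NUAK1 3.12-fold and FGF2 1.84-fold. The groups were far apart for each of these genes, and MITF was again higher in the libraries where they were low. MITF differed with the group, as virus, drug, lipid and siRNA did, and its part in these falls was not tested. POU3F2, the transcription factor BRN2, fell 1.62-fold and TFAP2C 2.44-fold, while SNAI2 rose 1.36-fold.

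The NF-kappaB and cytokine genes fell as a group. NF-kappaB dimers wait in the cytoplasm bound to inhibitors and, once released, switch on chemokines, cytokines, adhesion molecules and inhibitors of apoptosis. 20 of 27 tested members fell (74.1%, against 19.6% of all genes), 1 rose and 6 were not called (median -0.58). CXCL8, the neutrophil chemokine interleukin 8, fell 4.29-fold from 946, 896 and 998 CPM to 159, 230 and 273 CPM (adjusted p = 4.29e-05), and CXCL1 fell 3.74-fold from 742, 841 and 779 CPM to 199, 215 and 216 CPM. IL6 stood at 20.6, 16.9 and 23.1 CPM against 4.21, 6.46 and 5.59 CPM (3.74-fold lower, adjusted p = 2.26e-13). BIRC3, an inhibitor of apoptosis, fell 2.63-fold, CXCL2 3.07-fold and ICAM1, an adhesion receptor for leukocytes, 1.93-fold. The exception was TNFAIP3, the deubiquitinase A20 that restrains the pathway, up 1.39-fold.

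The promoters of CXCL2, IL6 and ICAM1 are shown because each holds 1 match to GGANTTTCC, the core of the NF-kappaB element (either strand, in capitals). They lie at chr4:74099196-74099445 on the minus strand, chr7:22726950-22727199 on the plus strand and chr19:10270870-10271119 on the plus strand, as 250 bases before the RefSeq start (GRCh38.p14).
CXCL2: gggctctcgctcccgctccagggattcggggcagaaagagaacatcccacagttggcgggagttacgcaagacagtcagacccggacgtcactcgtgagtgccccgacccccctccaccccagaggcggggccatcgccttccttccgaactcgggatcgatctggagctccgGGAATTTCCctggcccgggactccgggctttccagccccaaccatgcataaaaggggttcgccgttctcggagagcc
IL6: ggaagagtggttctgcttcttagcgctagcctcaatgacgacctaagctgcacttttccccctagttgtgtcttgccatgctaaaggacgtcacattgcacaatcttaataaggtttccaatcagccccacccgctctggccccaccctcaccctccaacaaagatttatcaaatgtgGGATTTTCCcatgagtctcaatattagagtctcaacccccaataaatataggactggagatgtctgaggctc
ICAM1: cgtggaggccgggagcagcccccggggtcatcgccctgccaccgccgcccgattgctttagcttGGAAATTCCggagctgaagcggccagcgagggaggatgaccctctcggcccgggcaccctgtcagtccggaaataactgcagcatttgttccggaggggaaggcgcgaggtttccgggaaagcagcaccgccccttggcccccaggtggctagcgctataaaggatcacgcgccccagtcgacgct
In windows from 250 bases before to 50 after the start, 10 of the 23 members with a promoter held the motif. It was held by 8 of the 17 that fell, by the 1 that rose and by 449 of all 27305 promoters (1.64%). Among genes that rose in other lists, 3 of 7 for double-stranded RNA sensing and 0 of 30 interferon-stimulated genes held it.

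Structural genes fell with them. Of 32 genes of actin and stress fibres 22 fell (68.8%, against 19.6% of all genes) and the other 10 were not called (median -0.42). TPM2, a tropomyosin that coats actin filaments, stood at 195, 212 and 213 CPM against 108, 111 and 109 CPM (1.88-fold, adjusted p = 6.18e-17). MYH9, the heavy chain of non-muscle myosin, fell 1.45-fold from 1332, 1426 and 1337 CPM to 943, 929 and 950 CPM, and the calponins CNN2 and CNN3 fell 1.63-fold and 1.41-fold. Of 28 integrin and focal adhesion genes 17 fell (60.7%) and 3 rose, with ITGA3 down 2.10-fold, ITGB1 down 1.33-fold and ITGA9 up 2.25-fold. YAP, a coactivator of the TEAD transcription factors, responds to cell spreading and tension. Of 26 YAP and TEAD targets 14 fell (53.8%) and 2 rose (median -0.47). CTGF fell 3.06-fold from 70.0, 79.3 and 72.8 CPM to 20.4, 25.6 and 26.0 CPM, and CYR61 2.47-fold.

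Cadherins and matrix genes were mixed. CDH19, a cadherin of neural crest cells, fell 2.72-fold, CDH2 1.69-fold and CLDN1, a tight junction protein, 3.57-fold, in a list of 20 with 9 lower and 5 higher (45% and 25%, against 19.6% and 18.9% of all genes). Of 40 matrix genes 13 rose and 13 fell (32.5% each), with VCAN, a large proteoglycan, up 2.16-fold and COL12A1 down 1.99-fold. Of 34 remodelling enzymes and inhibitors 13 fell and 5 rose (38.2% and 14.7%), with log2 fold changes of -1.13 for ADAMTS1 and 0.61 for TIMP2.

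**Figure D4:**
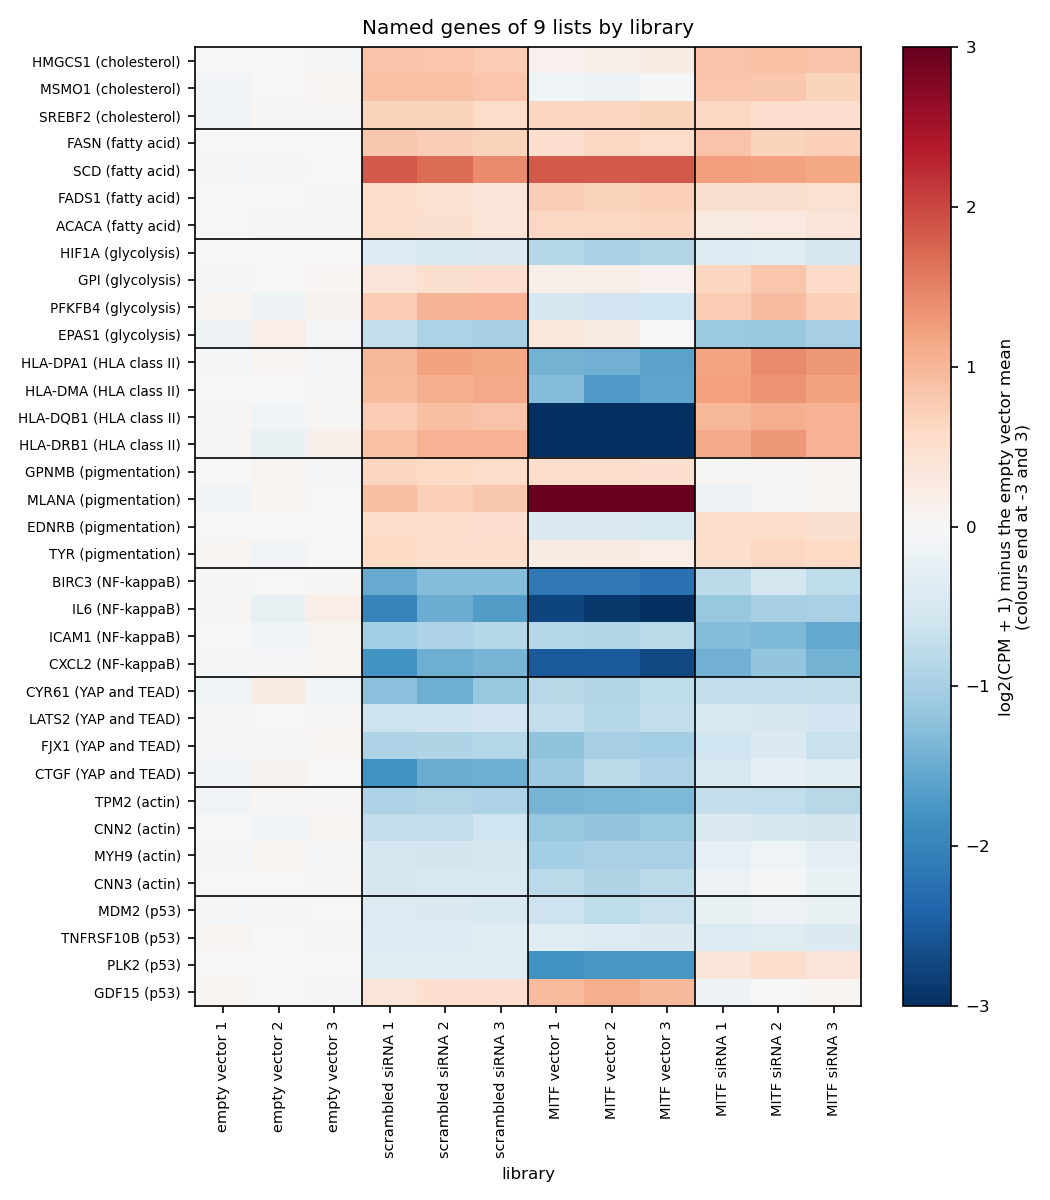
Log2(CPM + 1) of named genes of 9 lists in the 12 libraries, minus the mean of the empty vector libraries, red above and blue below, with colours ending at -3 and 3. The 3 scrambled siRNA columns are alike, red for the cholesterol, fatty acid, HLA class II and pigmentation genes and blue for the NF-kappaB, YAP and actin genes.

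Growth and stress genes fell by smaller amounts. Of 42 mitosis genes 21 fell (50.0%, against 19.6% of all genes) and 3 rose (median -0.13), and of 43 S phase genes 19 fell (44.2%) and 4 rose (median -0.13). PCNA, the sliding clamp of DNA polymerase, fell 1.38-fold from 248, 274 and 249 CPM to 184, 197 and 175 CPM, and RRM2, a subunit of ribonucleotide reductase, 1.35-fold. CENPE and CKAP2L fell 1.33-fold and 1.38-fold, whereas MKI67, a common proliferation marker, rose 1.19-fold (adjusted p = 0.0304). Replication-dependent histone genes did not follow, with 12 of 29 higher (41.4%) and 1 lower, but their near-identical copies leave single genes uncertain.

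Of 29 p53 targets 18 fell (62.1%, against 19.6% of all genes) and 4 rose (median -0.25). MDM2, the ligase that degrades p53, stood at 522, 551 and 543 CPM against 405, 399 and 390 CPM (1.35-fold lower, adjusted p = 4.70e-10), TNFRSF10B fell 1.31-fold, and GDF15 rose 1.38-fold. Of 26 apoptosis regulators 12 fell (46.2%) and 4 rose. Heat shock genes fell in 12 of 20 cases with the other 8 not called (median -0.15), HSPD1 from 1077, 1129 and 1092 CPM to 850, 835 and 815 CPM (1.32-fold). Among 26 chaperones of the endoplasmic reticulum 11 fell (42.3%) and 1 rose, but the count that fell was 6 without empty vector replicate 1 or 2, 5 without replicate 3, and 7 and 3 without scrambled siRNA replicates 2 and 3. Of 76 cytosolic ribosomal protein genes 31 fell (40.8%) and 1 rose (median -0.08), RPS27A by a log2 fold change of -0.32, and of 34 genes of ribosome biogenesis 17 fell (50.0%) and 1 rose, NOLC1 falling 1.45-fold, with 9 lower when scrambled siRNA replicate 1 was left out. MT2A, a metallothionein that binds zinc, fell 2.68-fold from 87.5, 76.0 and 86.0 CPM to 32.6, 29.3 and 31.8 CPM (adjusted p = 6.56e-18).

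Signalling lists had members in both directions. Among 24 MAPK output genes 8 rose and 11 fell (33.3% and 45.8%, against 18.9% and 19.6% of all genes, with 5 higher when empty vector replicate 1 was left out), with SPRY4 and ETV4 up 1.82-fold and 1.76-fold and IER3 down 1.43-fold. PMEPA1, induced by TGF-beta and a brake on it, fell 3.73-fold from 296, 287 and 297 CPM to 71.0, 83.9 and 81.0 CPM, in a TGF-beta and BMP list of 28 with 9 lower and 5 higher (32.1% and 17.9%). DKK1, a secreted Wnt antagonist, fell 3.44-fold, while 7 of 23 Wnt genes rose and 7 fell (30.4% each). HEY1, a Notch target, rose 1.85-fold, and JAG1, a Notch ligand, fell 2.34-fold. Of 8 tested efflux pump genes 5 rose, ABCC1 by 1.44-fold, and ABCC3 fell 2.94-fold, with 3 higher when either empty vector replicate 2 or scrambled siRNA replicate 3 was left out.

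The largest single falls included genes outside these lists. Among genes without overlap between the groups and with a mean log2 CPM of at least 1, C15orf54 fell most (15.1, 17.9 and 17.4 CPM against 1.22, 1.97 and 3.16 CPM, log2 fold change -2.96, SE 0.233, adjusted p = 1.59e-08), followed by SMOC1, a secreted calcium-binding protein (log2 fold change -2.69). PTRF, or cavin-1, which coats caveolae, fell 6.33-fold from 22.4, 19.8 and 23.5 CPM to 3.52, 3.79 and 3.09 CPM (adjusted p = 2.45e-18). PAGE5, a cancer-testis antigen, fell 5.18-fold from 53.5, 53.3 and 52.2 CPM to 11.1, 10.3 and 9.34 CPM (adjusted p = 7.10e-23). IL11, a cytokine of the interleukin 6 family, fell 5.32-fold and IL7R, the interleukin 7 receptor, 5.30-fold. SLITRK6, MYPN, PSD4, SOSTDC1, EFEMP1, ANGPT1, PLEK2 and TNFSF15 fell by 4.51-fold to 5.49-fold, each without overlap between the groups.

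These falls divided in the MITF-perturbed pair. 7 of the 15 were also lower with MITF siRNA than with MITF vector, namely PTRF, PAGE5, PSD4, SOSTDC1, ANGPT1, PLEK2 and TNFSF15, with log2 fold changes from -1.06 to -3.26. 7 were higher there, among them THBS1 (2.59), SMOC1 (2.41) and SLITRK6 (3.13), and EFEMP1 was not called (0.11, adjusted p = 0.679). Of all 2796 genes that fell between the controls, 586 were also lower in that pair and 1398 were higher (50.0%). The 7 of 15 that were higher lay near that last share. Rises outside the interferon list were PPFIA4, a liprin of synapses and adhesions (4.93-fold), RORA, a nuclear receptor (3.95-fold), and LDB3, a muscle Z-disc protein (3.70-fold), all called higher in both pairs. The small RNAs SNORA23 (4.33-fold) and SCARNA6 (4.3-fold) also rose, though neither was called with only the 2 control groups in the fit, and SNORA23 was also not called under the replicate block or without empty vector replicate 1 or 3 or scrambled siRNA replicate 1 or 3. SCARNA6 stood at 1.31, 7.84 and 1.31 CPM with the empty vector, its high library being replicate 2, whose small RNA share was also high, and without that library its log2 fold change was 3.24 in place of 2.10.

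Over whole lists the 2 pairs also parted. The interferon, HLA class I, cholesterol and glycolysis lists had medians above 0 in both. The NF-kappaB, actin, integrin, YAP and invasive-state lists had medians below 0 between the controls and above 0 in the MITF-perturbed pair (NF-kappaB -0.58 and 0.53, actin -0.42 and 0.61, invasive state -0.85 and 1.1), and pigmentation the reverse. 20 of the 22 actin genes that fell between the controls, 15 of the 20 NF-kappaB genes and 12 of the 16 invasive-state genes were called higher in the other pair, against 1398 of all 2796 genes that fell (50.0%). The difference between the pairs was not tested.

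**Figure D5:**
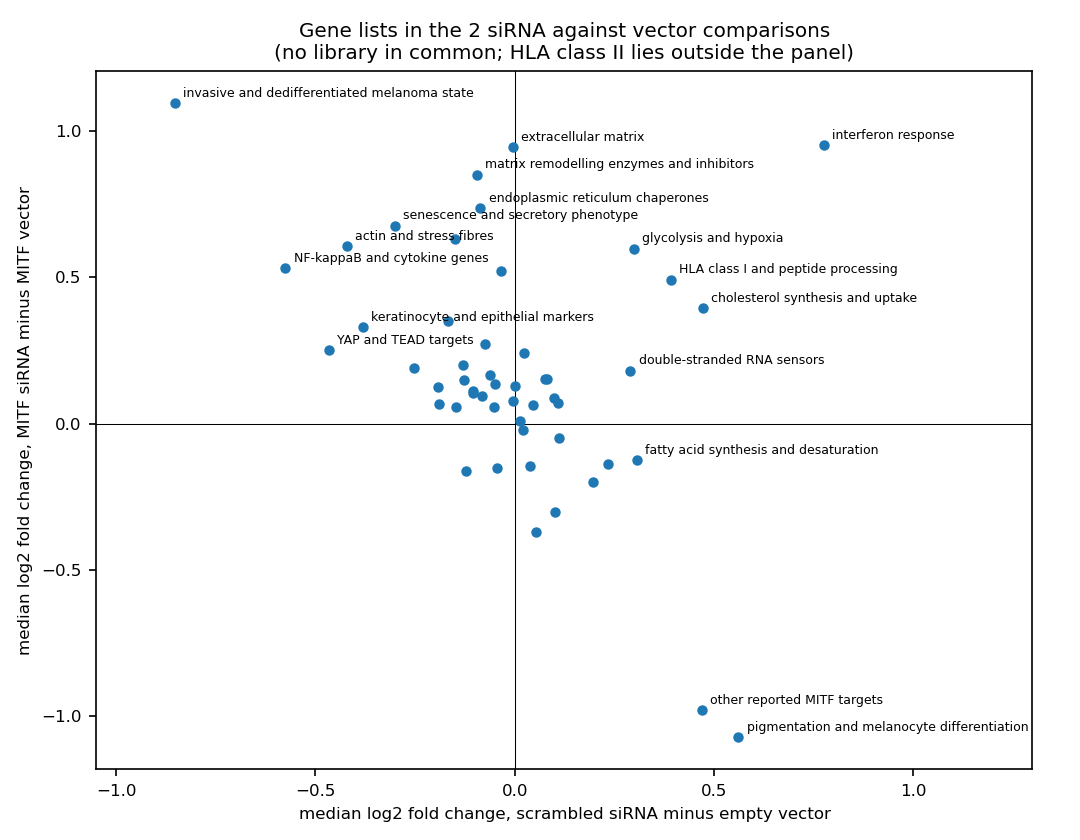
Median log2 fold change of each list between the controls (x axis) and between MITF siRNA and MITF vector (y axis), 1 point a list with 5 or more tested members, HLA class II (0.90 and 5.98) lying outside the panel. The interferon, HLA class I, glycolysis and cholesterol lists lie at upper right, the invasive-state, NF-kappaB and actin lists at upper left and the pigmentation list at lower right.

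Markers of other cell types were low for the fibroblast, immune and endothelial lists and higher for the other lists. Of 14 fibroblast markers 6 were tested, and their summed level was 35.0 to 40.5 CPM with the empty vector and 26.8 to 27.6 CPM with scrambled siRNA. Of 16 immune markers 7 had no count in the 6 libraries, among them CD3D, CD3E and TYROBP, and the sum was 13.5 to 16.9 CPM against 19.8 to 20.1 CPM, CD68 being the most abundant. Of 12 endothelial markers 2 were tested (sums of 3.92 to 4.65 and 3.23 to 4.59 CPM). Of 14 keratinocyte and epithelial markers 6 were at 0 (KRT5, KRT1, KRT19, CDH1, TP63 and DSG3), and the sum was 294 to 304 CPM against 167 to 193 CPM, most of it PERP and KRT18, which fell 1.64-fold and 1.98-fold. Of 15 kidney and packaging line markers 6 were at 0, and the sum was 179 to 189 CPM against 196 to 212 CPM, led by TBX2. The part of these markers in the results above was not tested. In bulk RNA fewer cells of a kind and less RNA per cell cannot be told apart.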

How the data were processed

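The authors deposited whole-number counts per gene symbol, not normalized, in 1 table of 26364 genes and 12 libraries. Tools listed in the submitters' processing notes are STAR 2.6.0, featureCounts 1.6.3, SAMtools 1.10 and bcl2fastq 2.18.0, with hg19. How strand and multi-mapped reads were treated is not given. Per the labels the reads were paired, of 76 bases. 0 rows had no gene name. A second file, of read file names, was not used.

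Genes were kept by filterByExpr (minimum count 10). Libraries were scaled by TMM, and the 12 entered 1 group-means fit by edgeR's robust quasi-likelihood method (edgeR 4.0.16, limma 3.58.1, R 4.3.3). An adjusted p under 0.05 (Benjamini-Hochberg over all tested genes) was called. SE is the log2 fold change over the square root of F. A count of 0 allows up to 0.404 CPM in the shallowest library at a floor of 3 counts. Intervals and floors cover counting error only. The steps were tested on simulated data.

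The text draws its genes by rule: MITF; the 15 largest called rises and 15 falls whose libraries do not overlap and whose mean log2 CPM reaches 1, leaving out pseudogenes, placeholder names and Y-linked genes; and from each list the 4 called members of smallest adjusted p, or the 2 most abundant if it had no call. Not every such gene is printed, and some are not reported here. Other list members and MIR6087 were named after their values were seen. Members and the 54 lists were chosen with earlier results of these data known. Lists are described by counts and medians, with no list test. The list of mitochondrially encoded genes had no row in the table. Promoters are from RefSeq (GRCh38.p14), matched by symbol, and no coordinates of the counts' build are given. Alternatives were DESeq2 1.42.0 and its size factors, no filter, minimum count 50, a replicate block, a fit of the 2 groups alone, and leaving out each library.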

Additional observations from a re-analysis of the deposited data

Results flagged for a closer look

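21 gene lists stood on opposite sides in the 2 siRNA against vector comparisons. In each, all 3 libraries of the siRNA group lay on one side of their vector group between the controls and on the other side in the MITF-perturbed pair. The difference was not tested, and MITF itself ran in opposite directions in the 2 pairs. Values are the median log2 fold change with scrambled siRNA, followed by that of MITF siRNA minus MITF vector.

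Higher between the controls and lower in the other pair were pigmentation (0.56 and -1.07), other reported MITF targets (0.47 and -0.98), fatty acid synthesis (0.31 and -0.12), lysosome and autophagy (0.23 and -0.14), drug efflux pumps (0.20 and -0.20) and the RNA interference machinery (0.11 and -0.049). Lower between the controls and higher in the other pair were the invasive melanoma state (-0.85 and 1.1), NF-kappaB and cytokine genes (-0.58 and 0.53), YAP and TEAD targets (-0.47 and 0.25), actin and stress fibres (-0.42 and 0.61), keratinocyte and epithelial markers (-0.38 and 0.33), senescence and its secreted factors (-0.30 and 0.68), p53 targets (-0.25 and 0.19) and integrins (-0.17 and 0.35).

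The rest had medians closer to 0 between the controls: S phase (-0.13 and 0.15), mitosis (-0.13 and 0.20), ribosome biogenesis (-0.11 and 0.11), matrix remodelling (-0.095 and 0.85), chaperones of the endoplasmic reticulum (-0.086 and 0.74), cytosolic ribosomal proteins (-0.083 and 0.095) and extracellular matrix (-0.0040 and 0.94). The matrix median had no stable sign between the controls, at 0.077 at minimum count 50, 0.0063 without the filter on low counts and 0.0098 without empty vector replicate 3.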

How the results depend on the processing

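Counts of called genes ran from 4622 to 5108 with 1 control library left out, and were 4777 with DESeq2, 5477 without the filter, 5209 at minimum count 50 and 5335 with the 2 groups alone, against 5502. No gene called in both the main and an alternative fit changed sign. Replicate numbers did not pair the libraries (correlations of same-numbered control libraries from -0.015 to 0.0099 over genes), and the replicate block gave 5394 calls. At minimum count 50 fewer genes were tested, and 341 changed at least 2-fold (169 higher, 172 lower), against 589. List medians that moved at minimum count 50 were -0.24 for p53 targets (-0.24 without the filter), -0.034 for immediate early genes (main 0.053), -0.33 for YAP and TEAD targets, 0.077 for extracellular matrix (main -0.0040), -0.050 for cadherins, -0.49 for fibroblast and -0.71 for keratinocyte markers, and -0.048 for interferon receptors. With the 2 groups alone they were -0.023 for immediate early genes and -0.50 for fibroblast markers. The cause was not tested. With 1 library left out, medians ran from -0.0083 to 0.022 (DNA repair), -0.54 to -0.38 (YAP), -0.47 to -0.39 (actin), -0.22 to -0.042 (cadherins), -0.010 to 0.058 (DNA sensing), 0.24 to 0.32 (fatty acids), -0.45 to -0.054 (fibroblast), 0.026 to 0.11 (nuclear RNAs), -0.30 to -0.24 (p53), -0.16 to -0.019 (receptor kinases), -0.076 to -0.022 (retroviral factors) and -0.34 to -0.21 (senescence). Of 228 called named genes 215 stayed called in all 12 alternatives. The 13 others include IFI44L, ISG15, SNORA23, SCARNA6, OAS1, OAS2, OAS3 and IFNGR2, whose adjusted p was 0.0392. The depth of the shallowest library and 3 libraries a group limit the precision.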

Other observations

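Further gene lists held members in both directions. Of 33 oxidative stress genes 9 rose and 13 fell (27.3% and 39.4%, against 18.9% and 19.6% of all genes). SOD2, the mitochondrial superoxide dismutase, stood at 143, 138 and 135 CPM with the empty vector against 101, 86.7 and 75.1 CPM with scrambled siRNA (1.58-fold lower, edgeR adjusted p = 9.36e-07). Of 35 genes of the ATF4 and amino acid response 5 rose and 13 fell (14.3% and 37.1%, with 7 lower when empty vector replicate 3 was left out and 3 higher when empty vector replicate 1 was), with VLDLR up 2.02-fold, WARS, a tryptophan tRNA synthetase that is also interferon-inducible, up 1.41-fold and MTHFD2 down 1.22-fold. Of 20 G1 cyclins and inhibitors 6 rose and 6 fell (30.0% each), CDKN1C by 1.35-fold upward and CDK6 by 1.34-fold downward. Of 38 DNA repair genes 18.4% rose and 15.8% fell, near the shares of all genes.

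Of 22 retroviral restriction and entry factors 5 rose and 3 fell (22.7% and 13.6%, near the 18.9% and 19.6% of all genes). SERINC5, a membrane protein that lowers the infectivity of retroviruses, stood at 298, 288 and 278 CPM against 507, 487 and 462 CPM (1.68-fold higher, edgeR adjusted p = 6.19e-16). PSIP1, the integrase tether LEDGF, fell 1.17-fold. Of 10 tested genes of cytosolic DNA sensing 4 rose and 1 fell (40.0% and 10.0%, median log2 fold change 0.013). The number that rose was 2 without empty vector replicate 1 and 2 without scrambled siRNA replicate 3. TMEM173 (STING) rose 1.22-fold and SAMHD1, a nucleotide hydrolase, 1.91-fold (not called with only the 2 control groups in the fit or without empty vector replicate 1), while MB21D1 (cGAS) fell 1.24-fold.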
